A study of Mus musculus with 15 samples.

Results

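Barcodes were counted as Cdkn1a-positive when they came from the single-cell library of Atg7-deleted microglia, held at least 500 detected genes, at most 10% mitochondrial UMIs and at least 2000 UMIs, and carried at least 2 UMIs of Cdkn1a. A UMI is a tag that marks 1 captured RNA molecule, and a barcode marks 1 droplet, usually 1 cell. Of 9840 barcodes in that library 7298 were eligible, and 561 of them were Cdkn1a-positive (7.69%, 95% exact binomial interval 7.09 to 8.32). A further 662 eligible barcodes had 1 Cdkn1a UMI and 6075 had 0. Each positive barcode was paired with the unused 0-UMI barcode nearest in total UMIs, giving 561 matched barcodes. The barcodes were chosen by their Cdkn1a UMIs, so that gene is left out of every level and total, and every difference below describes the chosen barcodes with no test.

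The library, called cKO, came from C57BL/6 mice of genotype ATG7FF;Cx3cr1CreER, with 4 forebrains pooled. Its control library came from ATG7FF mice without Cre, with 3 forebrains pooled. All mice of both genotypes carried the floxed Atg7 alleles, were given tamoxifen (1.5 mg) when 2 months old and were sampled when 8 months old. After Percoll enrichment, cells with high CD11b and low CD45 were sorted, a gate that takes microglia and can take other myeloid cells. Cx3cr1 drives the Cre in microglia and in other Cx3cr1-expressing macrophages. Barcodes cannot be assigned to single mice, each genotype is 1 pooled library, and no difference has a replicate check. Bulk libraries of 5xFAD forebrain were not used here.

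Cdkn1a encodes p21, an inhibitor of cyclin-dependent kinases that holds cells at cell cycle checkpoints. It is a classic target gene of the transcription factor p53, which also induces genes of cell death, DNA repair and its own negative feedback. p21 also binds PCNA, is made during normal cycling, and is one of the genes used as a marker of senescence. Atg7 encodes an enzyme needed to attach the lipid tail to autophagy proteins of the LC3 family.

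The positive barcodes carried microglial RNA. All 15 microglia markers were measured in them, with a summed level of 44869 counts scaled to 1000000 UMIs (CPM), against 47551 CPM in the matched barcodes. Border macrophage markers summed to 230 CPM in positive and 237 CPM in matched barcodes, with Cd163, Clec12a, Lyve1 and F13a1 at 0 UMIs in the positive ones. The 10 T and NK cell markers had 0 UMIs in positive and 2 UMIs in matched barcodes. Positive barcodes had a median of 5195 UMIs, 2277 genes and 1.01% mitochondrial UMIs, and matched barcodes 5195 UMIs, 2276 genes and 0.943%. Only 2 pairs differed by over 5% in total UMIs, the widest by 82.1%, because 1 positive barcode held 47794 UMIs and the deepest matched barcode 26242. Scrublet marked 0 of 7298 eligible barcodes as doublets, so the caller did not work here and doublets were not removed. The 2 libraries shared 22 barcode sequences, none of them a Cdkn1a-positive barcode. The Y-linked gene Ddx3y gave 285 UMIs in positive and 280 UMIs in matched barcodes, and Xist 5 and 4 UMIs.

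In eligible barcodes Atg7 was at 17.3 CPM (16.0 to 18.7) in the cKO library and 11.5 CPM (6.45 to 19.0) in the control library. The kit reads transcript ends, and which exon is deleted is not given in the sources used here; these counts do not check the deletion. Within the cKO library Atg7 had 42 UMIs in positive and 57 UMIs in matched barcodes, a ratio of 0.732 whose counting interval of 0.479 to 1.11 includes 1. Cx3cr1, whose locus carries the Cre, was at 2817 CPM in the cKO and 5137 CPM in the control library.

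The same rule found 3 positive barcodes among 511 eligible ones in the control library (0.587%, 0.121 to 1.71). Eligible barcodes had a median of 4890 UMIs in the cKO and 2423 UMIs in the control library, so depth differed with genotype. Between 2000 and 4000 UMIs, 121 of 1783 cKO barcodes (6.79%) and 3 of 503 control barcodes (0.596%) were positive. With every barcode thinned at random to 2000 UMIs, 228 of 7298 cKO barcodes (3.12%, 2.74 to 3.55) and 3 of 511 control barcodes kept 2 Cdkn1a UMIs. Every cluster carried the microglia markers, so no other cell type showed how many Cdkn1a UMIs free RNA gives.

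Of 7000 genes with at least 20 CPM in either set, 213 (3.04%) were at least 1.5-fold higher in positive than in matched barcodes and 28 (0.4%) at least 1.5-fold lower, and the median log2 ratio was 0.03. Of the 7000 genes 396 passed this limit only through the positive barcodes, 145 of them among the 213, so counts over gene lists below use genes with at least 20 CPM over all eligible cKO barcodes. By that limit 88 of 6625 genes (1.33%) were at least 1.5-fold higher and 19 (0.287%) lower, with a median of 0.02. Of the 6625 genes 3644 were above a ratio of 1 and 2981 below. The counts are of summed UMIs, and the intervals given with ratios below are exact 95% intervals that cover counting error only. The 15 genes with the highest ratio included Hmmr, Birc5, Knl1, Pbk, Kif23, Rrm2, Top2a, Ube2c, Hist1h1b, Nusap1, Prc1, Kif11, Lockd and Mki67. The protein-coding genes among them act in chromosome segregation, cytokinesis, DNA synthesis or chromatin packaging of dividing cells.

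Most of the genes with known promoters among these 15 shared a short element. The CHR element (TTTGAA on either strand) is bound by complexes that keep mitotic genes off outside late cell cycle, and p21 is known to act on it through the DREAM complex. In RefSeq promoter windows (GRCm38.p6, 250 bases before to 50 after a start), it was found in 9 of the 12 matched genes, against 20.2% of all 27025 genes. The CCAAT box (CCAAT on either strand) was found in 9 of the 12, against 41.1% of all genes. Both elements were chosen after the genes were seen, and the 15 genes were ranked in these same data. All 15 passed the limit of 20 CPM only through the positive barcodes, with at most 1.80 CPM in the matched ones. The shares describe the promoters of these genes, and an action of p21 on them was not tested. The promoters of Top2a, Ube2c and Kif11 are printed as examples from the 9 genes with the CHR element, which is in capitals. The windows of Birc5, Rrm2 and Nusap1 held no CHR element.
Top2a, chr11:99024140-99024439, minus strand: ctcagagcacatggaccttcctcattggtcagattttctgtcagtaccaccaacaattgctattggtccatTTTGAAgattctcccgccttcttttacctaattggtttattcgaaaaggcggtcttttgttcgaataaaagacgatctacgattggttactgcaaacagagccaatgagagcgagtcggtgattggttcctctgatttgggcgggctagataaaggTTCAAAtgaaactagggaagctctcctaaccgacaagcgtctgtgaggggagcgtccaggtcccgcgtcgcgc
Ube2c, chr2:164769679-164769978, plus strand: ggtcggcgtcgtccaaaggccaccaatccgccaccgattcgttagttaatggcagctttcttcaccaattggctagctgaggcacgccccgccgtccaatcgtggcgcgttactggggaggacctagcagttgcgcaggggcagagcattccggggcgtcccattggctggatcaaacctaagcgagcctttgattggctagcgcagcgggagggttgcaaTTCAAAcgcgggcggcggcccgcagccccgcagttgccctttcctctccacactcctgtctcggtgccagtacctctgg
Kif11, chr19:37376132-37376431, plus strand: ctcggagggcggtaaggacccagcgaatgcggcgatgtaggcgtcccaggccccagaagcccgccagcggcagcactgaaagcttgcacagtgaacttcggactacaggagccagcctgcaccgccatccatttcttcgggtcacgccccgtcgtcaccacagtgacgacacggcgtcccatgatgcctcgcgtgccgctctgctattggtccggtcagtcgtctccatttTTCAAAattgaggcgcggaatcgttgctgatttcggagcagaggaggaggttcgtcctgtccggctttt

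Among the 14 p53 targets with 20 CPM in either set, 11 had a promoter window, and 7 of these 11 held a p53 half-site, against 9.55% of all genes. The antioxidant element (TGACNNNGC on either strand) was in 0 of those 11 and in 14.0% of all genes. It was in 5 of 13 targets of NRF2, a transcription factor of the antioxidant response. Both lists name known targets, so the shares describe the lists and do not bear on the Cdkn1a-positive barcodes. Ccng1 and Aen are printed because both were among the 4 targets with the highest ratio, with the p53 half-site in capitals. The windows of Bbc3 held no half-site, and Trp53inp1 had no window.
Ccng1, chr11:40755237-40755536, minus strand: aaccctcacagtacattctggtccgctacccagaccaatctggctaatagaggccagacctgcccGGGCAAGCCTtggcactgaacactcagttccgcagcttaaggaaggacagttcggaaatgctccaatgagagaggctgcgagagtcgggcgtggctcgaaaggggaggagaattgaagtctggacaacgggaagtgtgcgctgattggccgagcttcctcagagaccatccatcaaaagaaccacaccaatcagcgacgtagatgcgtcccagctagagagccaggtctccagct
Aen, chr7:78895808-78896107, plus strand: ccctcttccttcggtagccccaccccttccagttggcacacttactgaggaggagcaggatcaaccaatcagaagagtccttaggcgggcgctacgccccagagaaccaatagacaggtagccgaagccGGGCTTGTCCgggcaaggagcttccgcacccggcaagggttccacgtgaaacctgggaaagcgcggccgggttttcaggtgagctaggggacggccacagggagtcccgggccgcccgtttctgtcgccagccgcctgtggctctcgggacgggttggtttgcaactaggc

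Mki67 encodes the proliferation antigen Ki-67 (chr7:135689784-135716361, GRCm38). It had 388 UMIs in 48 positive barcodes, against 6 UMIs in 5 matched barcodes, a 64.2-fold ratio (29.2 to 176). Top2a, the topoisomerase that untangles replicated DNA, had 368 UMIs in 43 positive and 2 UMIs in 2 matched barcodes. With so few matched counts its ratio of 183 had an interval of 50.2 to 1515. Hmmr, a spindle protein, had 160 UMIs in 36 positive barcodes and 0 in matched ones. With the matched set put at the floor of 3 UMIs it was 52.98-fold higher, and its exact interval starts at 42.6. Birc5 (survivin, of the chromosomal passenger complex) had 133 UMIs in 34 positive and 0 in matched barcodes, 44.0-fold higher on the same floor, with an interval from 35.3. Stmn1, a microtubule destabiliser, was at 226 CPM in positive and 32.5 CPM in matched barcodes, 6.96-fold (5.68 to 8.60). Over a 20-gene proliferation list, all 20 were above a ratio of 1 at any level, and 11 of the 15 that reached 20 CPM did so only in the positive barcodes. The 4 with at least 20 CPM over the library were Stmn1, Pcna, Tubb5, a tubulin (1.51-fold, 1.37 to 1.66), and Mcm3, of the replicative helicase (1.46-fold, 1.16 to 1.83).

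Mitotic and replication genes of the list were summed apart. The 9 mitotic genes of the list summed to 471 CPM in positive and 9.62 CPM in matched barcodes, 48.9-fold (34.5 to 71.8). The 9 replication genes summed to 319 CPM in positive and 179 CPM in matched barcodes, 1.78-fold (1.61 to 1.97). Pcna, the replication clamp that p21 binds, had 363 UMIs in positive and 230 UMIs in matched barcodes, 1.57-fold (1.33 to 1.86). Thymidylate synthase, Tyms, was 2.40-fold higher (1.70 to 3.43). Rrm2, a subunit of ribonucleotide reductase, had 85 UMIs in 24 positive barcodes and 0 in matched ones, 28.1-fold higher on the same floor, with an interval from 22.4. Without Rrm2 the other 8 replication genes were 1.64-fold higher (1.48 to 1.82).

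The mitotic RNA sat in few barcodes. A barcode with at least 20 UMIs over the 20-gene list is called cycling here, a limit chosen after the values were seen. By this limit 42 of 561 positive barcodes (7.49%, 5.45 to 9.99) and 1 of 561 matched barcodes (0.178%, 0.00451 to 0.989) were cycling. The limit is a raw count, so a deep barcode passes it more easily. The deepest positive barcode, with 47794 UMIs, passed it with 23 list UMIs and lay outside the Mki67 cluster described below. Seen the other way, the library held 52 cycling barcodes, of which 42 (80.8%, 67.5 to 90.4) were Cdkn1a-positive, 5 had 1 Cdkn1a UMI and 5 had 0. Of 38 barcodes with at least 30 list UMIs 36 were positive, and of 26 with at least 50 all 26 were. At the looser limit of 10 UMIs, 57 of 149 were positive.

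**Figure D1:**
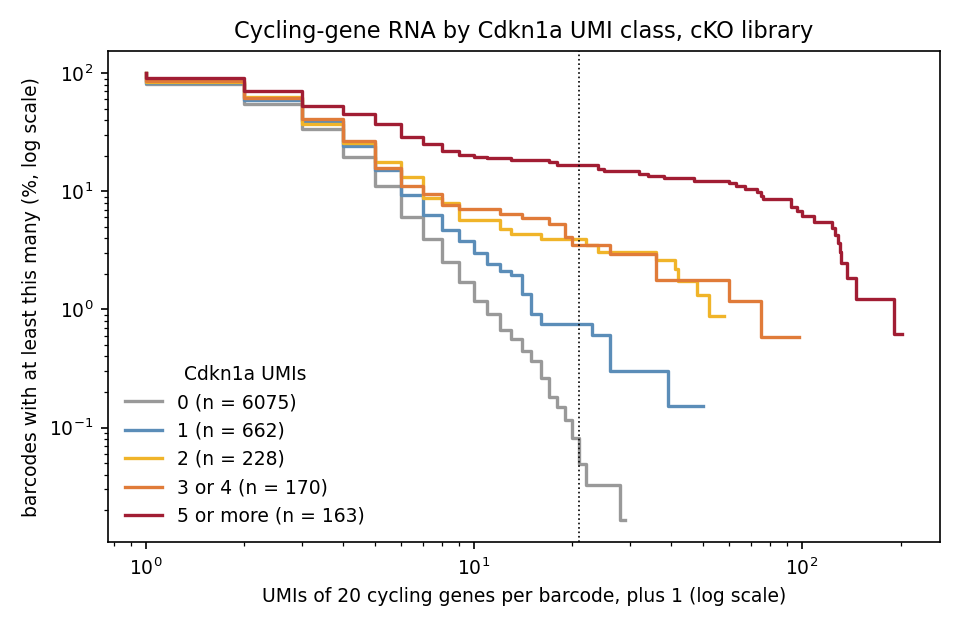
Share of eligible cKO barcodes (vertical axis, percent, log scale) with at least a given number of UMIs over 20 proliferation genes (horizontal axis, UMIs plus 1, log scale), 1 line for each Cdkn1a UMI class, and the dotted line at 20 UMIs. The lines separate to the right: no barcode with 0 Cdkn1a UMIs passed 28 list UMIs, while barcodes with 5 or more reached 201.

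The share of cycling barcodes differed along the Cdkn1a classes. It was 0.0823% at 0 UMIs, 0.755% at 1 UMI, 3.95% at 2 UMIs, 3.53% at 3 or 4 UMIs and 16.6% (11.2 to 23.2) at 5 or more. Cycling positive barcodes were deeper than the other positives, with a median of 7362.5 UMIs against 5089. Thinned to 2000 UMIs per barcode, with the limit at 10 list UMIs, 35 of 561 positive barcodes (6.24%), 3 of 662 with 1 UMI (0.453%) and 5 of 6075 with 0 UMIs (0.0823%) passed. Among eligible barcodes with at least 8000 UMIs, 102 of 541 (18.9%) were Cdkn1a-positive.

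The 42 cycling positive barcodes were microglial by their markers. Their microglia markers summed to 38090 CPM, against 45693 CPM in the other 519 positive barcodes and 47551 CPM in the matched ones. Of the 363009 UMIs of these 42 barcodes, 47794 came from the deepest one. Their border macrophage markers summed to 157 CPM, against 238 and 237 CPM in the same sets, and their T and NK cell markers to 0. P2ry12, the purinergic receptor of resting microglia, was at 2386 CPM in the cycling positives, 3198 CPM in the other positives and 3569 CPM in the matched barcodes.

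Several p53 target genes were higher in positive barcodes. Of 28 listed targets 12 had at least 20 CPM over the library. Of these 9 were above a ratio of 1 and 4 reached 1.5-fold, with a median log2 ratio of 0.19. Among all 6625 genes at that level 3644 were above 1 and 1.33% reached 1.5-fold, with a median of 0.02. At any level 24 of the 28 were above 1, as were 8467 of all 15832 genes with a UMI. Btg2, which is also an immediate early gene, was near even at 1676 CPM in positive and 1589 CPM in matched barcodes.

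The list holds genes of cell death, cell cycle, repair and feedback. Bbc3 (PUMA, an activator of BAX-dependent death; chr7:16308393-16318205, GRCm38) had 195 UMIs in 154 positive barcodes, against 60 UMIs in 55 matched barcodes, 3.23-fold (2.41 to 4.39). Bax, the pore-forming death effector, had 762 UMIs in 365 positive barcodes and 390 UMIs in 276 matched barcodes, 1.94-fold (1.72 to 2.20). Aen, a nuclease, had 109 UMIs in positive and 55 UMIs in matched barcodes, 1.97-fold (1.41 to 2.77). It reached 20 CPM in the positive barcodes (32.5 CPM) but not in the matched ones (16.5 CPM) or over the library. Phlda3, an inhibitor of AKT signalling, had 64 UMIs in 44 positive barcodes and 1 UMI in 1 matched barcode, 63.6-fold (11.01 to 2550). Phlda3 lay just under the level limit at 19.1 CPM and was singled out after its value was seen. No more than 11 of the 6075 barcodes with 0 Cdkn1a UMIs held a Phlda3 UMI.

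For 4 other death genes the intervals included 1. Ei24 had 172 UMIs in positive and 159 UMIs in matched barcodes, 1.07-fold (0.861 to 1.34). Pmaip1 (NOXA), Fas and Perp lay under the level limit, with ratios of 1.66 (0.839 to 3.38), 1.99 (0.619 to 7.41) and 1.55 (0.623 to 4.05).

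Targets of the cell cycle, repair and feedback lay on both sides of 1. Ccng1, cyclin G1, had 179 UMIs in positive and 86 UMIs in matched barcodes, 2.07-fold (1.59 to 2.71). Trp53inp1, a p53 cofactor, had 152 and 67 UMIs in the same order, 2.25-fold (1.68 to 3.05). Mdm2, the ligase that degrades p53, was 1.28-fold higher (1.06 to 1.57). Sesn1 was 0.876-fold (0.735 to 1.04) and the repair gene Xpc 0.726-fold (0.523 to 1.00). Trp53 itself had 346 UMIs in positive and 354 UMIs in matched barcodes, a ratio of 0.971 (0.835 to 1.13).

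**Figure D2:**
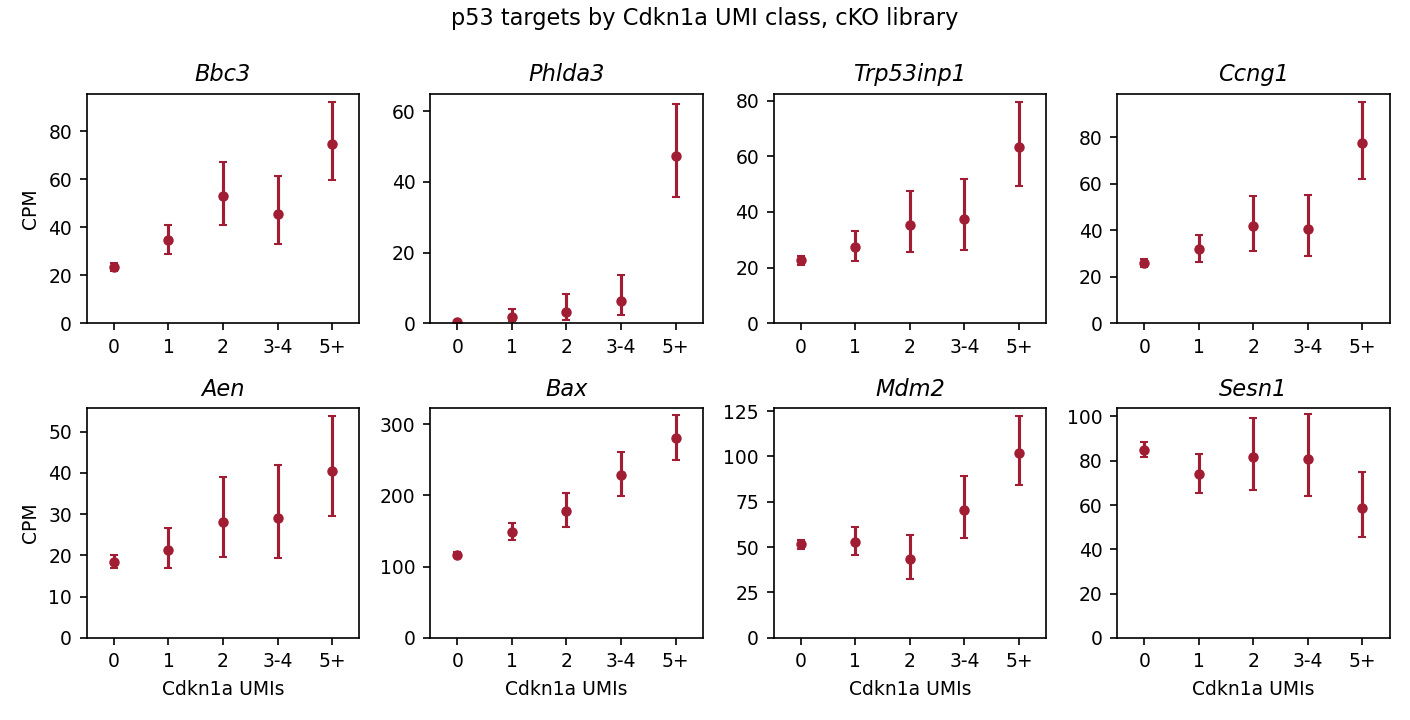
Level of 8 p53 targets (vertical axes, CPM) in all eligible cKO barcodes of each Cdkn1a UMI class (horizontal axes), with points for summed levels and bars for exact Poisson 95% intervals of counting error. Phlda3 stands at 47.4 CPM at 5 or more UMIs and under 7 CPM in every other class, Bax runs from 117 to 280 CPM over the classes, and Sesn1 does not follow the order.

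Across the classes Bax was at 117, 149, 179, 228 and 280 CPM from 0 to 5 or more Cdkn1a UMIs. Bbc3 was at 23.5 CPM at 0 UMIs, 34.5 at 1, 52.9 at 2, 45.7 at 3 or 4, and 74.7 CPM at 5 or more. Phlda3 was at 0.354, 1.89, 3.21, 6.23 and 47.4 CPM over the same classes. Next to the limit, barcodes with 2 UMIs, just inside, had 41.7 CPM of Ccng1, and those with 1 UMI, just outside, 31.8 CPM. Barcodes with 1 UMI, set against their own matched barcodes, had 24 genes of 6840 (0.351%) at least 1.5-fold higher and 17 (0.249%) lower. Of the 12 p53 targets 7 were above 1 there and 0 reached 1.5-fold, while 3524 of the 6840 genes were above 1.

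The p53 targets were also compared outside the barcodes rich in proliferation RNA. After every barcode with 10 or more list UMIs was left out, 504 positives remained, with 101 of 6883 genes (1.47%) higher and 37 (0.538%) lower. Of the 12 p53 targets 10 were then above 1 and 4 at 1.5-fold, with a median log2 ratio of 0.23. Of the 6883 genes 3594 were above 1. Bbc3 had 178 UMIs in these positives and 51 UMIs in their matched barcodes, 3.49-fold (2.54 to 4.86), Bax 627 and 335 UMIs, and Ccng1 133 and 74 UMIs. Phlda3 had 41 UMIs in them and 0 in the matched ones. Mki67 had 8 UMIs in positives and 5 in matched barcodes. The barcodes left out were chosen by the proliferation list, so its own values there follow from that choice. Per barcode, the 27 targets other than Btg2 gave a median of 4 UMIs (0 to 31) in all positives and 3 UMIs (0 to 17) in matched barcodes, so the ranges overlapped widely. They made up 0.0898% of UMIs in positive and 0.0607% in matched barcodes.

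Of 8 other cell cycle regulators with at least 20 CPM over the library none reached 1.5-fold, and 6 were above 1, as were 3644 of all 6625 genes. Another 5 reached 20 CPM only in the positive barcodes and were at least 1.5-fold higher, as were 145 of all 396 such genes. Passing the limit in this way favours a high ratio, so that count is not a result about the 5 genes. Lmnb1, lamin B1, had 122 UMIs in positive and 22 UMIs in matched barcodes, 5.51-fold (3.48 to 9.11), but 17 and 18 UMIs once barcodes with 10 or more list UMIs were left out. The inhibitor Cdkn2c was 4.71-fold higher (2.98 to 7.74), and 1.53-fold (0.827 to 2.88) without them. Cdkn2a, whose p16 and ARF products are used as senescence markers, lay under the level limit with 37 UMIs in 31 positive and 5 UMIs in 5 matched barcodes, a ratio of 7.35 (2.88 to 24.0), and 11 against 4 UMIs without the same barcodes. Cdkn2b had 3 UMIs in each set. The histone variants H2afx and H2afz had ratios of 4.17 and 1.70, and 0.913 and 0.972 without those barcodes.

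Positive barcodes clustered unevenly. In a clustering that left Cdkn1a out, the 3 clusters of over 1000 barcodes held 7.18%, 5.21% and 7.06% positives. A cluster of 115 barcodes led by Mki67 and Top2a held 52 (45.2%, 35.9 to 54.8), and it held 49 of the 52 cycling barcodes. A cluster of 185 barcodes led by Cck, Ccl6, Cd74 and Cst7 held 39 (21.1%, 15.4 to 27.7), and one of 138 led by Ttr, Enpp2 and Cxcl10 held 21 (15.2%, 9.67 to 22.3). The Mki67 cluster was built from genes that also differ, so its share describes the same barcodes again.

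**Figure D3:**
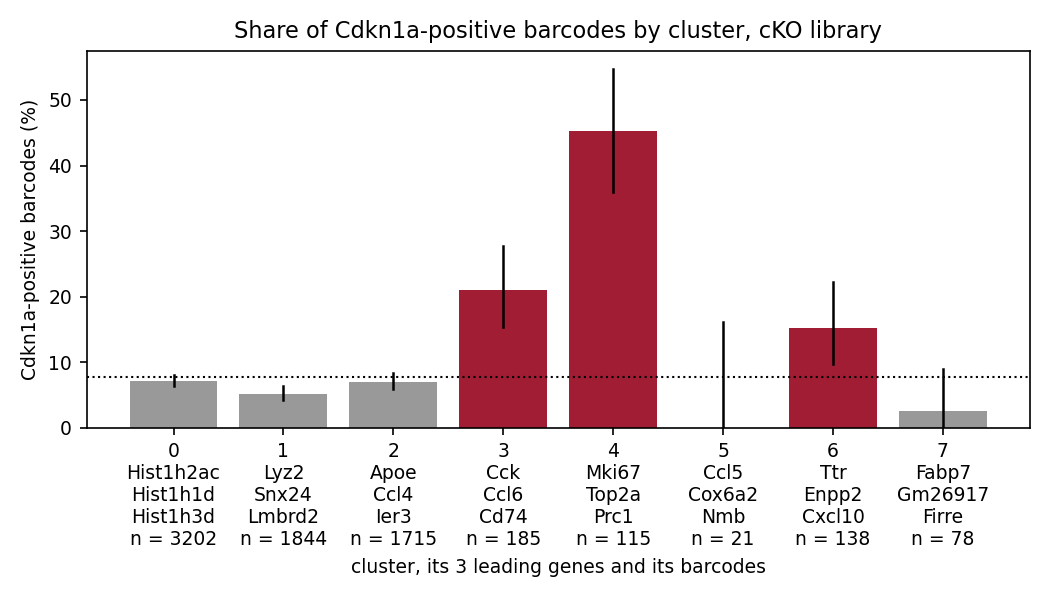
Share of Cdkn1a-positive barcodes (vertical axis, percent) in each cluster of eligible cKO barcodes (horizontal axis, with 3 leading genes and barcode number), with bars for shares, black lines for exact 95% intervals, red for clusters whose interval lies above that of the whole library, and a dotted line at the library's 7.69%. The Mki67 cluster stands at 45.2%, followed by the Cck cluster at 21.1%.

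The p53 targets were also compared within clusters, each positive barcode against matched ones of its own cluster. Of the 12 targets 10, 9 and 7 were above 1 in the 3 clusters of over 1000 barcodes, and 3, 7 and 5 reached 1.5-fold, with medians of 0.25, 0.65 and 0.24 on the log2 scale. In the Mki67 cluster 7 were above 1 and 5 reached 1.5-fold (median 0.12), and in the Cck cluster 6 and 3 (0.12). In the Ttr cluster, with 21 pairs, 5 were above 1 and 5 were at least 1.5-fold lower (-0.18). No share of all genes stands beside these counts, and smaller sets carried more genes past 1.5-fold. The 228 barcodes with 2 Cdkn1a UMIs had 358 of 7080 genes higher and 211 lower. The 170 with 3 or 4 had 487 of 7034 higher and 324 lower. In the largest cluster Bbc3 had 102 UMIs in 230 positive and 26 UMIs in as many matched barcodes, 3.85-fold (2.49 to 6.18). In the other 5 clusters compared Bbc3 had ratios of 1.41 to 2.61, and in 4 of them the interval included 1. Bax was 1.88-fold (1.53 to 2.31), 1.98-fold (1.45 to 2.74) and 1.67-fold (1.29 to 2.18) higher in the 3 clusters of over 1000 barcodes. In the Mki67 cluster Bax was 2.04-fold (1.46 to 2.88) and Ccng1 4.00-fold (1.99 to 8.89) higher. Matching inside the Mki67 cluster did not even out proliferation RNA. Of the 20 proliferation genes 14 were still at least 1.5-fold higher there, with a median log2 ratio of 3.43. In the Cck cluster Bax was 1.88-fold (1.19 to 3.02) and in the Ttr cluster 1.35-fold (0.644 to 2.92). Restricted to the 3 large clusters together, 447 positives had 97 of 6916 genes (1.4%) higher and 45 (0.651%) lower.

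Some inflammatory genes were higher in positive barcodes, in part through few of them. Of 5 interferon-response genes with at least 20 CPM over the library 4 were above 1 and 1 reached 1.5-fold, while another 7 reached 20 CPM only in the positive barcodes. Isg15 had 133 UMIs in 41 positive and 23 UMIs in 16 matched barcodes, 5.74-fold (3.67 to 9.37), and Ifi27l2a was 4.79-fold higher (3.74 to 6.19). At least 20 interferon UMIs were found in 17 positive and 4 matched barcodes, which held 1118 of 2597 and 243 of 1361 of the list's UMIs. In the 3 large clusters 2 of the 5 genes were above 1. Cxcl10, an interferon-induced chemokine, had 426 UMIs in 22 positive and 30 UMIs in 6 matched barcodes, and 267 of the 426 came from 1 barcode. Of 7 chemokines at that level 3 reached 1.5-fold, among them Ccl12 at 405 CPM in positive and 133 CPM in matched barcodes (3.06-fold, 2.75 to 3.41). Ccl4 was 1.53-fold (1.36 to 1.72) and Ccl3 1.39-fold (1.24 to 1.54) higher. Of 15 genes of NF-kB signalling and cytokines 14 were above 1 and 4 reached 1.5-fold, with Tnf at 202 UMIs in positive and 105 UMIs in matched barcodes (1.91-fold, 1.50 to 2.44). Of all 6625 genes at that level 3644 were above 1, and 88 (1.33%) were at least 1.5-fold higher. The highest positive barcode held 207 of 1358 Ccl12 UMIs, 80 of 746 Ccl4 UMIs and 36 of 202 Tnf UMIs. The highest matched barcode held 95 of 441, 32 of 485 and 7 of 105 in the same order.

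**Figure D4:**
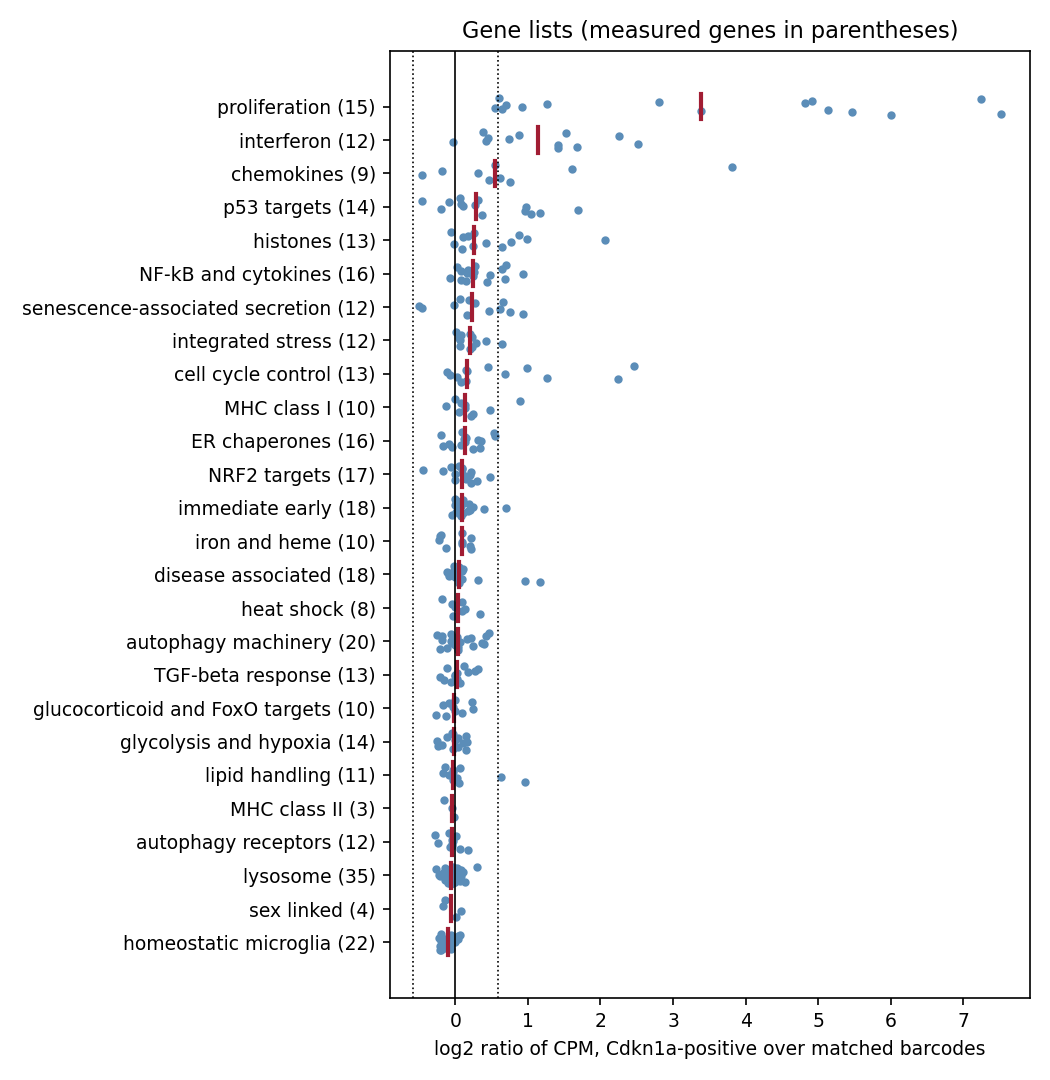
Log2 ratio of CPM in Cdkn1a-positive over matched barcodes (horizontal axis) for each gene of 26 lists with at least 20 CPM in either set (rows, number of genes in parentheses), with blue points for genes, red lines for list medians and dotted lines at 1.5-fold in either direction. The proliferation list spreads widest to the right, where 11 of its 15 genes reached 20 CPM only in positive barcodes, and homeostatic microglia genes lie slightly below 0.

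Microglial state genes differed by less than 1.5-fold for the most part. Of 18 disease-associated genes 2 reached 1.5-fold, against a median log2 ratio of 0.05, namely Cst7, a cathepsin inhibitor, at 39.1 CPM in positive and 17.4 CPM in matched barcodes (2.24-fold, 1.63 to 3.11) and Lpl, lipoprotein lipase, at 1.95-fold (1.49 to 2.57). For Lpl 32 of 165 UMIs came from 1 positive barcode, and 7 of 84 from 1 matched barcode. Apoe, an apolipoprotein, had 2895 UMIs in 185 positive and 2775 UMIs in 192 matched barcodes, of which 967 and 479 came from 1 barcode of each set. None of 22 homeostatic genes reached 1.5-fold, and 19 were below 1, with a median of -0.10 and P2ry12 at 0.871-fold (0.848 to 0.895). In the 5-or-more class their median was -0.18. Within the Mki67 cluster, with 52 pairs, 7 of the 22 were at least 1.5-fold lower (median -0.33), as were 3 of the 18 disease-associated genes (-0.20). No share of all genes stands beside these counts, and smaller sets carried more genes past 1.5-fold. Of 17 immediate early genes with 20 CPM in either set there, 7 were also at least 1.5-fold lower and 2 higher. In the Cck cluster 11 of the 22 homeostatic genes were above 1. Positive and matched barcodes of the Mki67 cluster still differed widely in proliferation RNA. None of 17 NRF2 targets, 16 ER chaperones, 35 lysosomal genes, 19 autophagy machinery genes or 12 autophagy receptors reached 1.5-fold, and 1 of 18 immediate early genes did (Ier3, 1.62-fold). Of 10 genes of the senescence-associated secretion list 3 reached 1.5-fold (Tnf, Ccl2 and Ccl4), all of which also stand in the cytokine or chemokine lists. Of 11 lipid-handling genes 2 did (Lpl and Plin2), of 12 histone genes 4 and of 10 MHC class I genes 1 (H2-Q4). The heat shock, MHC class II, glycolysis, glucocorticoid, TGF-beta, iron and sex-linked lists had none. All 10 genes of the integrated stress response were above 1, and none reached 1.5-fold. Of all 6625 genes at that level 3644 were above 1 and 2981 below, and 88 (1.33%) were at least 1.5-fold higher.

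The 10 lowest genes were Enpp2, Ttr, 1110002L01Rik, Chchd10, Kmt5c, Trmt10a, Mettl21a, Mrpl10, E130307A14Rik and Fem1a. Ttr and Enpp2, made by the choroid plexus, had 325 and 14 UMIs in positive barcodes against 4673 and 297 UMIs in matched ones. In positive barcodes 286 of the 325 Ttr UMIs came from 1 barcode, and in matched ones 2049 of the 4673. For Enpp2 it was 11 of 14 UMIs in positive and 158 of 297 in matched barcodes, and for Chchd10 41 of 52 and 76 of 107. In the whole library 19 eligible barcodes held 20 or more Ttr UMIs, 1 of them positive. The others had ratios between 0.462 and 0.619 on at most 141 UMIs in either set, and Chchd10 reversed in several settings.

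The control library could be read beside these values only without a UMI minimum, when 22 of its 6243 barcodes had 2 Cdkn1a UMIs. Mki67 had 20 UMIs in 6 of these and 0 in their matched barcodes, Top2a 17 UMIs against 0, and Bax 16 UMIs in 12 of them against 2 UMIs in 2 matched barcodes. Bbc3 had 4 UMIs against 0. Of 10 control barcodes with at least 10 proliferation UMIs, 6 were among the 22. With so few barcodes no difference between genotypes in these ratios was assessed.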

How the data were processed

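UMI counts per gene and barcode were deposited by the authors, counted by Cell Ranger (version 6.1.0), per the file headers. The libraries used the 10x Genomics 3' V3 kit, per the labels' protocols, and the submitters' processing notes name mm10 and Seurat. No normalization had been applied to them. Total counts were 40701821 UMIs in 9840 cKO barcodes and 9314315 UMIs in 6633 control barcodes. PCR duplicates are collapsed by UMI, and all intervals cover counting error only.

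UMIs were summed over barcodes and divided by the sum of all UMIs without Cdkn1a (CPM). Genes with at least 20 CPM in either set were measured, counts over gene lists used 20 CPM over all eligible barcodes, a limit chosen after seeing the data, and a gene counted as higher or lower at 1.5-fold. Ratios carry exact Clopper-Pearson intervals, checked on simulated data only. The intervals treat each UMI as independent, so they do not cover UMIs gathered in few barcodes, as for Cxcl10 and Ttr. A gene at 0 was put at 3 UMIs over its set. Clusters came from scanpy 1.11.5 (10000-scaled log values, 2000 variable genes, 30 components, 15 neighbours, Leiden resolution 0.5). Python 3.11.15, NumPy 2.4.6 and SciPy 1.17.1 were used. Samples were grouped by genotype label. No tests were made, since cells of 1 library are not replicates and the barcodes were chosen by a measured value. The barcodes, gene lists and thresholds were chosen with earlier results of these data known. Genes named are from the 15 highest (1 of which is not reported here) and 10 lowest, up to 4 genes of each list with the largest log2 ratio, and Atg7, Cx3cr1, Apoe, Lyz2, Ccl3, Ccl4, Cst7, Lpl and Trp53; other genes named were chosen after their values were seen. Gene positions are from GENCODE M21 (GRCm38). Alternatives were other matching, UMI limits, filters, scaling and depths.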

Additional observations from a re-analysis of the deposited data

How the results depend on the processing

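No paired analysis was possible because each genotype is 1 pooled library. The median log2 ratios of NRF2 targets (0.09 to 0.17), homeostatic genes (-0.14 to -0.08), immediate early genes (0.04 to 0.18) and p53 targets (0.19 to 0.64) kept their sign in every setting run. That of disease-associated genes moved in 1, to 0.13 with only clusters of 1000 or more barcodes. The count of genes at least 1.5-fold higher, 213, became 395 with at least 3 Cdkn1a UMIs, 101 without barcodes of 10 or more proliferation-list UMIs, 97 with only large clusters, 476 with each barcode thinned to 2000 UMIs, 50 at a minimum of 50 CPM, 88 with at least 20 CPM over all eligible barcodes and 2861 with no filter beyond 1 UMI. The count of lower genes, 28, became 18 with matching inside clusters, 87 with at least 3 UMIs, 45 with only large clusters, 7 when every 0-UMI barcode was weighted, 210 thinned, 3 at 50 CPM and 2096 with no filter. Thinning leaves fewer UMIs per gene, and no filter adds genes with few UMIs. Settings that left out proliferation-rich, Ttr-rich or deepest barcodes, kept only large clusters or set the level over all eligible barcodes were chosen after seeing the data.

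Signs turned for the proliferation list (-0.014 over 4 genes, against 15 genes with all barcodes) and, as log2 ratios, Lmnb1 (-0.083), H2afx (-0.13) and H2afz (-0.041) without the proliferation-rich barcodes, and for the interferon list (-0.035 over 5 genes, against 12) and H2afx (-0.16) with only large clusters. Chchd10 turned to 1.27 with matching inside clusters, 1.78 at 5% mitochondrial UMIs, 0.79 without the deepest 5% of barcodes, 0.66 without proliferation-rich barcodes, 1.13 without Ttr-rich barcodes, 0.75 without barcodes over 20000 UMIs, 1.72 in large clusters and 0.36 thinned; the cause was not tested. For single genes, other lists and clusters, 50 values moved by more than their interval under those 5 settings and 520 did not, against 128 and 1533 under the others. At a clustering resolution of 1, the share of positive barcodes was 31.2% in place of 45.2% in the Mki67 cluster. The largest cluster at 0.5 had 3202 barcodes, led by Hist1h2ac and Hist1h1d, and a share of 7.18%. At 1, a cluster of 1192 barcodes led by Hist1h3d and Hist1h2ac had 8.64%, and one of 1064 led by Hist1h1d 5.83%.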

Other observations

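Genes outside the lists that led in the 3 large clusters were singled out after their values were seen. Wfdc17 had 60 UMIs in 16 of 447 positive barcodes and 8 UMIs in 6 matched barcodes, and 36 of the 60 came from 1 barcode. Map3k20, a stress kinase also called ZAK, had 64 UMIs in 49 positive and 24 UMIs in 22 matched barcodes, 2.64-fold. Wfdc17 and Map3k20 reached 20 CPM only in the positive barcodes, with 3.14 and 9.41 CPM in the matched ones. Rps27l, a ribosomal protein gene known as a p53 target, had 468 UMIs in 247 positive and 253 UMIs in 173 matched barcodes, 1.83-fold. Mthfd2, of mitochondrial folate metabolism, had 137 UMIs in 82 positive and 62 UMIs in 55 matched barcodes, 2.19-fold. None of these ratios has a replicate check.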
